A study of Homo sapiens with 12 samples.

Results

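H3K79me3 over gene bodies was compared between SA, a line derived from soft agar colonies of the human colorectal cancer line DLD1, and DLD1 itself, by chromatin immunoprecipitation and sequencing. SA is described in the labels as mesenchymal and DLD1 as epithelial and parental. SPH, a mesenchymal line from colonospheres, and METS, an epithelial line from a lung metastasis of a xenograft, were profiled in the same way, and their values stand beside those of SA only to place them. The culture medium of every line was McCoy's 5A, supplemented with fetal bovine serum. The series holds 12 libraries, 1 per line for each of H3K79me3, H3K4me3 and H3K27me3, and this comparison used the 2 H3K79me3 libraries of SA and DLD1. With 1 library per line there is no replicate check and no p-value, and the sources used here do not say whether SA is a single clone or a pool of colonies.

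H3K79 methylation is written by DOT1L, the enzyme that travels with elongation factors, and the trimethyl form covers the early part of transcribed genes, where it is used as a marker of active transcription. H3K4me3 marks active promoters, and H3K27me3, the product of Polycomb repressive complex 2, marks silenced genes. Colonies in soft agar arise from cells that grow without attachment to a surface.

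The measured unit was the gene row, an interval of the H3K27me3 table that was taken as a gene body on build hg19, on chromosomes 1 to 19. The files pair these intervals with no gene name, so rows are given by position. Counts of all H3K79me3 regions lying wholly inside a row were summed, and a row was kept when it held 5 or more regions. Of 49993 distinct rows, 12129 held a region and 6525 were kept. Of 157878 H3K79me3 regions, 133546 (84.6%) lay inside a row and 125602 inside a kept row. A kept row had a median of 13 regions, a median length of 45.3 kb and a median of 467 counts in SA and 487 in DLD1. Rows overlap, and 1625 of the kept rows share a region with another. The 603 rows with exactly 5 regions had a median log2 ratio of SA to DLD1 of -0.06, and the 752 rows with 4 regions, just below the limit, had -0.09.

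Summed over the 157878 regions, the H3K79me3 libraries held 7273964 counts in SA, 6165169 in SPH, 6432882 in METS and 7521451 in DLD1. Reads outside the regions are not included. Each count was divided by its library's total over regions and is given as CPM. A row's sum grows with its length and is compared between lines, not between rows. Each fold is the CPM of SA over that of DLD1, and the 95% interval beside it is an exact Clopper-Pearson interval given the summed count. These intervals cover counting error only, because PCR copies cannot be told apart in counts per region and no second library shows how far cultures of 1 line differ.

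Relative to each library's total over regions, H3K79me3 over gene rows was close to DLD1 in SA, and past 1.5-fold more rows were lower than higher. Without a fold limit the balance was near even: the counting interval lay above 1 at 1323 rows and below 1 at 1258. The median log2 ratio of SA to DLD1, with 0.5 CPM added to each value, was 0.00, and the middle 90% of rows lay between -0.46 and 0.35. Scaling to the total holds the summed CPM of kept rows nearly equal, since these rows held 84.24% of SA and 83.76% of DLD1 counts. A gain or loss of the mark over all rows at once would therefore not show. The scaling does not fix the median over rows, which was -0.06 in SPH and 0.08 in METS. At a difference of at least 1.5-fold, 61 rows (0.935%) were higher in SA and 174 (2.67%) were lower, or 235 (3.6%) in all. They made up 56 and 162 separate loci once rows with shared regions were joined. The interval excluded 1 at 52 of the 61 and at 158 of the 174, and lay wholly past 1.5-fold at 19 and 37. After quantile normalization of the region counts, 96 rows were higher and 127 lower, so the share of higher rows was 43.05% in place of 25.96%.

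**Figure D1:**
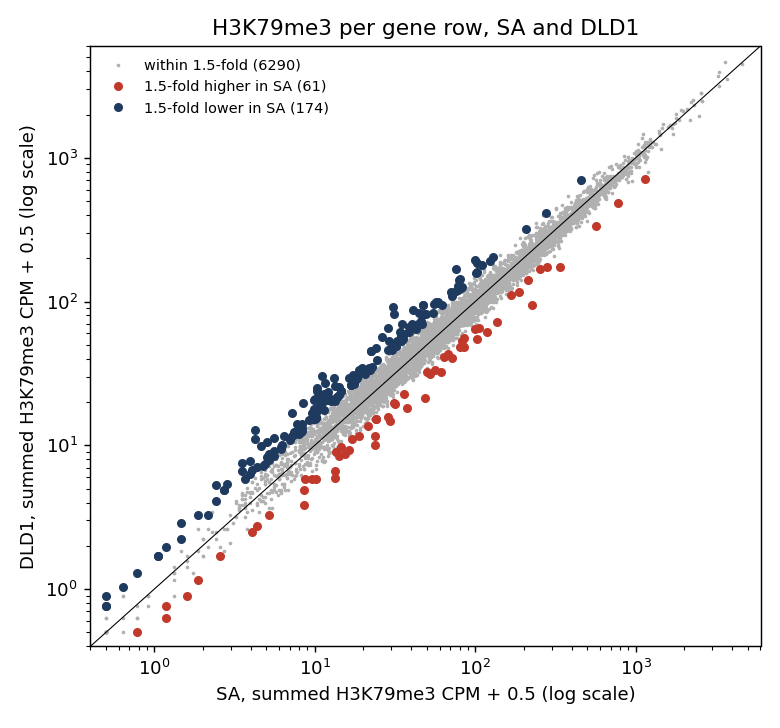
Summed H3K79me3 CPM plus 0.5 of each of the 6525 gene rows, in SA on the x axis and in DLD1 on the y axis, both on log scales; the line marks equal values. Most rows hug the line, the 61 rows higher in SA lie below it and the 174 rows lower in SA lie above it.

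The rows that gained most in SA were higher at most of their regions. The row chr7:111366166-111846466 had 23.4 CPM (170 counts) in SA, 33.7 in SPH, 18.2 in METS and 9.57 (72 counts) in DLD1. It was 2.44-fold higher in SA than in DLD1 (1.84 to 3.26). All 11 of its regions were higher in CPM, but several held few counts, and chr7:111831601-111832018 had 6 counts in each line. The row chr17:79373540-79433357 had 225 CPM in SA, 549 in SPH, 321 in METS and 94.5 in DLD1. The sum was 2.38-fold higher in SA than in DLD1 (2.17 to 2.599), and SPH stood above SA. All 27 regions were higher in SA, by 1.38-fold to 4.14-fold. The row chr17:79369275-79375658, which overlaps it, had 117 CPM in SA, 339 in SPH, 210 in METS and 60.9 in DLD1, and was 1.92-fold higher in SA (1.72 to 2.16).

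Other gains were larger in SA than in the remaining lines. The row chr2:199417919-199637080 had 47.8 CPM in SA, 34.5 in SPH, 25.8 in METS and 20.9 in DLD1, 2.29-fold higher in SA than in DLD1 (1.89 to 2.79). The row chr1:219858769-220131989 had 339.6 CPM in SA, 223 in SPH, 161 in METS and 173.5 in DLD1. Its sum was 1.96-fold higher in SA (1.83 to 2.09), and 55 of its 57 regions were higher. The row chr11:27676440-27743605 had 85.2 CPM in SA, 32.9 in SPH, 46.5 in METS and 47.7 in DLD1, 1.79-fold higher in SA (1.57 to 2.04). The row chr1:61330931-61928465 had 565 CPM in SA, 395 in SPH, 143 in METS and 335 in DLD1. It was 1.69-fold higher in SA (1.60 to 1.77) and higher at 33 of 34 regions, whereas METS lay below DLD1.

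The remaining gains among the 15 highest were between 1.80-fold and 2.12-fold. The row chr1:40810522-40888998 had 23.4 CPM in SA and 11.04 in DLD1, and chr4:115519611-115599380 had 29.1 and 14.2 CPM in the same lines. Both stood near SA in SPH, at 27.4 and 31.0 CPM, and near DLD1 in METS, at 11.5 and 12.4 CPM. On chromosome 8, chr8:107532702-107669776 had 60.8 CPM in SA, 52.1 in SPH, 83.9 in METS and 31.8 in DLD1. There chr8:110586207-110704020 had 102 in SA, 95.4 in SPH, 70.1 in METS and 54.8 in DLD1. The row chr7:63980262-64023484 had 136 CPM in SA, 146 in SPH, 94.4 in METS and 71.5 in DLD1, higher in SA than in DLD1 at 28 of 29 regions. The rows chr12:68042118-68059186, chr10:12938627-13141652 and chr3:120405528-120461840 completed the set, with 28.1, 14.98 and 15.8 CPM in SA against 15.3, 8.24 and 8.78 in DLD1. In these rows METS stood above SA, at 30.3, 18.3 and 18.5 CPM, and SPH had 21.7, 6.65 and 9.73. The chromosome 3 row dropped below 1.5-fold, to a log2 ratio of 0.53, when a region with only its midpoint inside the row also counted.

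**Figure D2:**
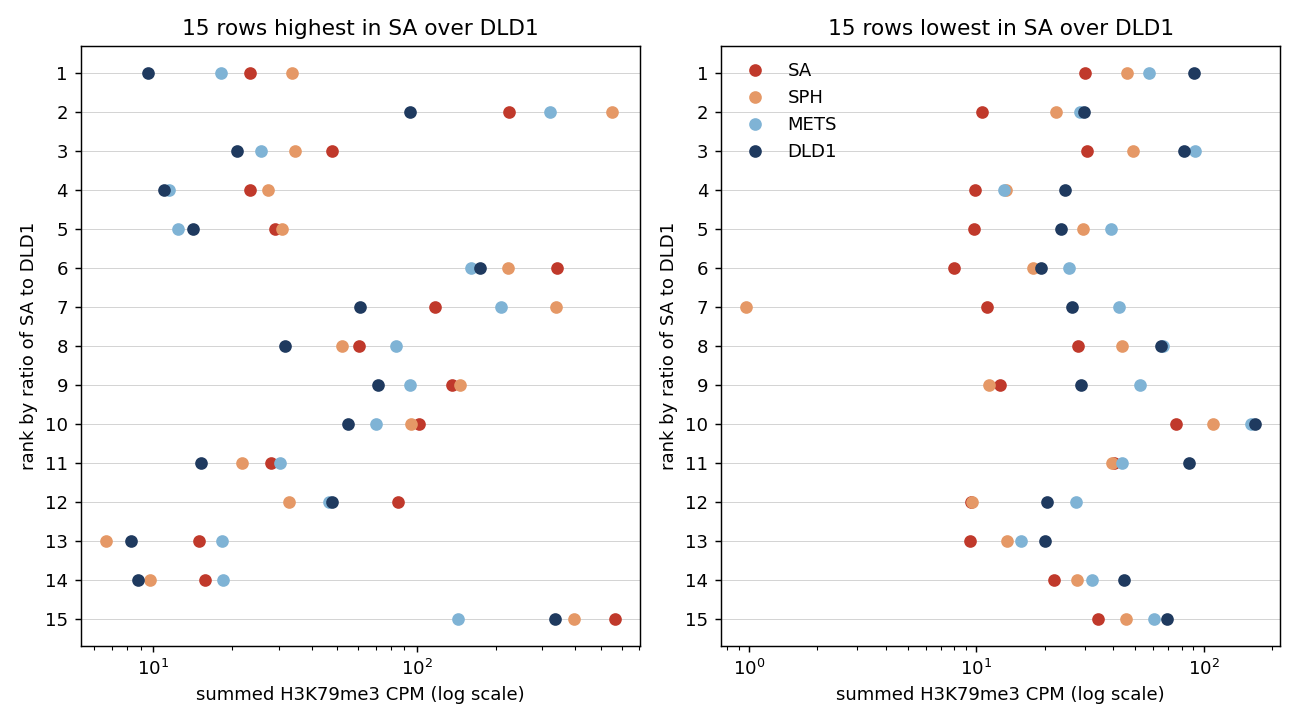
Summed H3K79me3 CPM on a log scale in SA, SPH, METS and DLD1 for the 15 rows highest (left) and the 15 rows lowest (right) in the ratio of SA to DLD1, ranked downwards. SA lies to the right of DLD1 in every row on the left and to its left in every row on the right, by the choice of rows; SPH at rank 7 of the lowest, at 0.973 CPM, stands apart.

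The steepest losses in SA exceeded the steepest gains. The row chr7:23349828-23510086 had 30.1 CPM (219 counts) in SA, 46.2 in SPH, 57.5 in METS and 90.7 (682 counts) in DLD1. It was 3.01-fold lower in SA (2.58 to 3.52), and all 22 of its regions were lower. The row chr12:96051583-96184930 had 10.6 CPM in SA, 22.4 in SPH, 28.6 in METS and 29.8 in DLD1. Its sum was 2.81-fold lower in SA (2.16 to 3.69), and all 12 regions were lower. The row chr1:43990858-44089343 had 30.8 CPM in SA, 48.7 in SPH, 91.2 in METS and 81.9 in DLD1. Its sum was 2.66-fold lower in SA (2.28 to 3.11), and all 22 regions were lower. In each of these rows SA was the lowest of the 4 libraries.

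The row chr12:52562780-52585784 had 75.6 CPM (550 counts) in SA, 110.1 in SPH, 162 in METS and 168 (1266 counts) in DLD1. It was 2.23-fold lower in SA (2.01 to 2.46), and each of its 14 regions was lower. The row chr2:99235569-99347589 had 40.4 CPM in SA, 39.6 in SPH, 43.8 in METS and 86.2 in DLD1, 2.13-fold lower in SA (1.85 to 2.46), so that DLD1 alone was high. The row chr1:31882412-31907525 had 28.1 CPM in SA, 43.6 in SPH, 66.2 in METS and 64.6 in DLD1, 2.30-fold lower in SA (1.95 to 2.73). The row chr1:26648350-26680621 had 34.2 CPM in SA, 45.4 in SPH, 60.3 in METS and 69.3 in DLD1, 2.02-fold lower in SA (1.74 to 2.36).

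At 3 of the 15 lowest rows METS lay at least 1.5-fold above DLD1. The row chr4:331603-378653 had 11.1 CPM in SA, 0.973 in SPH (6 counts), 42.6 in METS and 26.5 in DLD1. It was 2.38-fold lower in SA than in DLD1 (1.83 to 3.12), and its level in SPH was lower still. The row chr17:36584662-36668628 had 12.7 CPM in SA, 11.4 in SPH, 52.7 in METS and 28.9 in DLD1, and chr11:1575274-1593150 had 9.76 in SA, 29.4 in SPH, 39.0 in METS and 23.5 in DLD1. The remaining rows of this set were chr9:133320316-133376661, chr16:31142756-31147083, chr14:75894419-75940814, chr1:17866330-18024369 and chr14:96671181-96730266. They had between 7.97 and 21.9 CPM in SA and between 19.3 and 44.5 in DLD1, and were 2.04-fold to 2.47-fold lower in SA.

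The rows were picked on the sum of their regions, so most regions lie on the side of the row's change by that choice, and the counts here only describe how evenly they do. Of the 61 higher rows, 17 had every region higher in SA, and of the 174 lower rows, 59 had every region lower. The median share of regions on the side of the row's change was 88.2% in the higher and 87.5% in the lower rows. In 7 of the higher and 11 of the lower rows under 50% of the regions did so. At chr7:23349828-23510086 the regions lay 1.07 to 55.5 kb from the strongest H3K4me3 region of the row, and the ratio of SA to DLD1 ran from 0.161 to 0.804 among them. Its best-covered region, chr7:23503605-23504055, had 40 counts in SA and 84 in DLD1. At chr1:219858769-220131989 most regions lay 154.6 to 260.0 kb from the strongest H3K4me3 region of the row. That row held only 106 H3K4me3 counts in SA and 100 in DLD1, so this distance need not run from a gene start. Its best-covered H3K79me3 region in DLD1, chr1:219962949-219963344, had 122 counts in SA and 66 in DLD1.

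**Figure D3:**
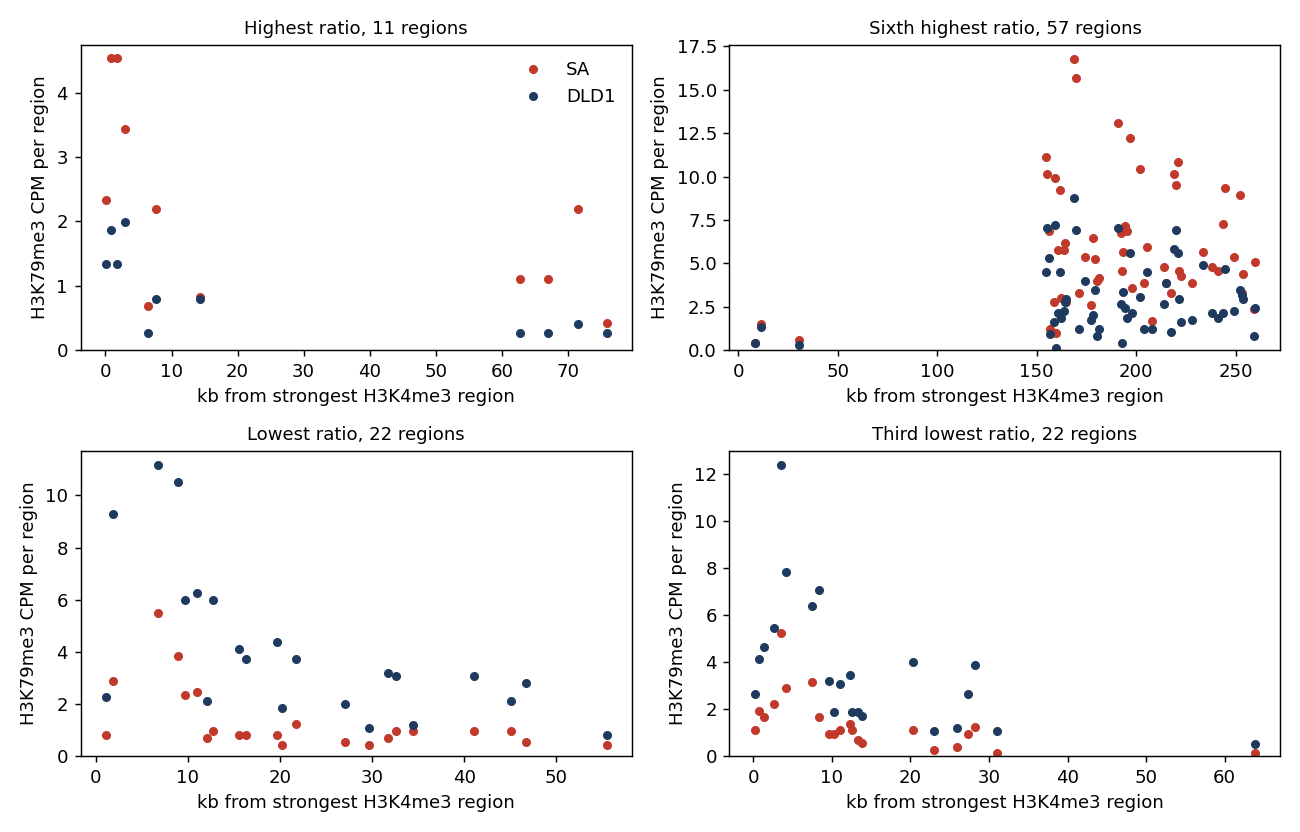
H3K79me3 CPM of each region in SA and DLD1 against its distance in kb from the strongest H3K4me3 region of the row, for the rows at ranks 1 and 6 among the highest (top) and 1 and 3 among the lowest (bottom). In the bottom panels DLD1 lies above SA at all 22 regions of each row; in the top left panel SA lies above DLD1 at all 11.

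The shape of the mark along gene rows also differed. Distances were taken from the strongest H3K4me3 region of a row, by the mean of SA and DLD1, and were used where this region lay within 2 kb of a row end, at 5359 rows (82.1%). The files give no strand, so this end stands in for the gene start. Summed over all these rows, H3K79me3 within 1 kb was 0.910 times DLD1 in SA (0.907 to 0.914). It was 1.07 times DLD1 at 1 to 2 kb (1.06 to 1.07) and 1.08 at 2 to 3 kb (1.07 to 1.08), and it came back to 1.01 at 10 to 20 kb and 0.943 beyond 100 kb.

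Row by row, 4494 rows had at least 20 counts of SA and DLD1 together both within 1 kb and at 1 to 10 kb. The median log2 ratio of SA to DLD1 was -0.16 within 1 kb and 0.06 at 1 to 10 kb. SA was lower within 1 kb and higher at 1 to 10 kb in 1743 rows (38.8%), and the reverse held in 364 (8.1%). At 1.5-fold, 511 rows were lower and 55 higher within 1 kb, against 96 lower and 55 higher at 1 to 10 kb. The medians within 1 kb were 0.21 in SPH and 0.29 in METS, and at 1 to 10 kb they were -0.10 and -0.02. These 3 comparisons share the DLD1 library. The sums within 1 kb were 70160 CPM in SA, 96860 in SPH, 93640 in METS and 77070 in DLD1, so SA was the lowest line there. This profile was examined after the values were seen.

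**Figure D4:**
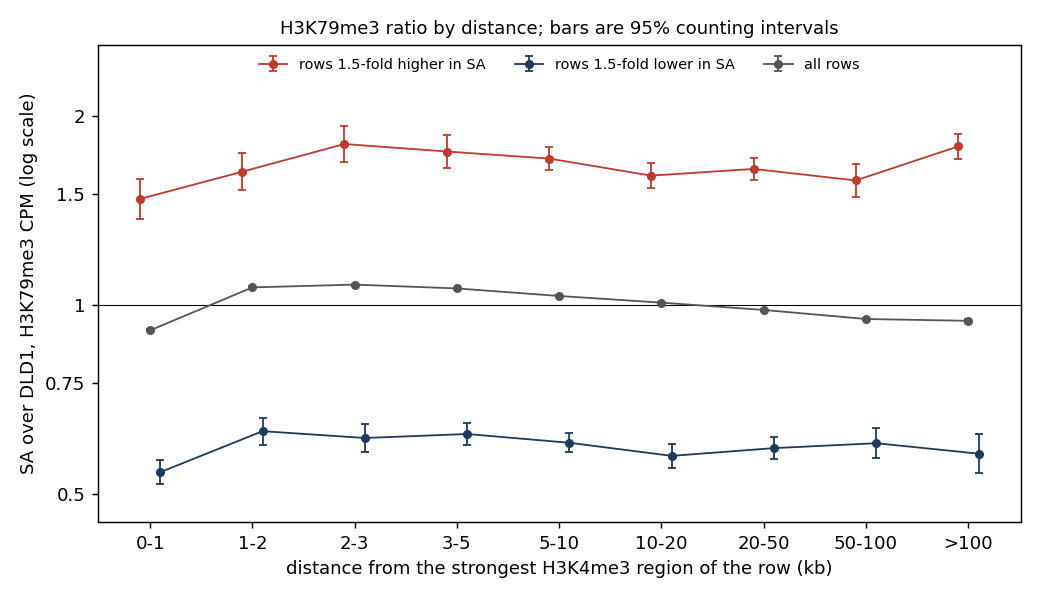
Ratio of SA to DLD1 in summed H3K79me3 CPM (log scale) by distance in kb from the strongest H3K4me3 region of the row. Only rows with this region within 2 kb of a row end are used: 44 rows 1.5-fold higher, 126 rows 1.5-fold lower and 5359 rows in all. Bars are 95% counting intervals. Over the 5359 rows the ratio is 0.910 within 1 kb, passes 1 from 1 to 20 kb and falls below 1 farther out, while the higher and lower rows lie on their side by the choice of rows.

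**Figure D5:**
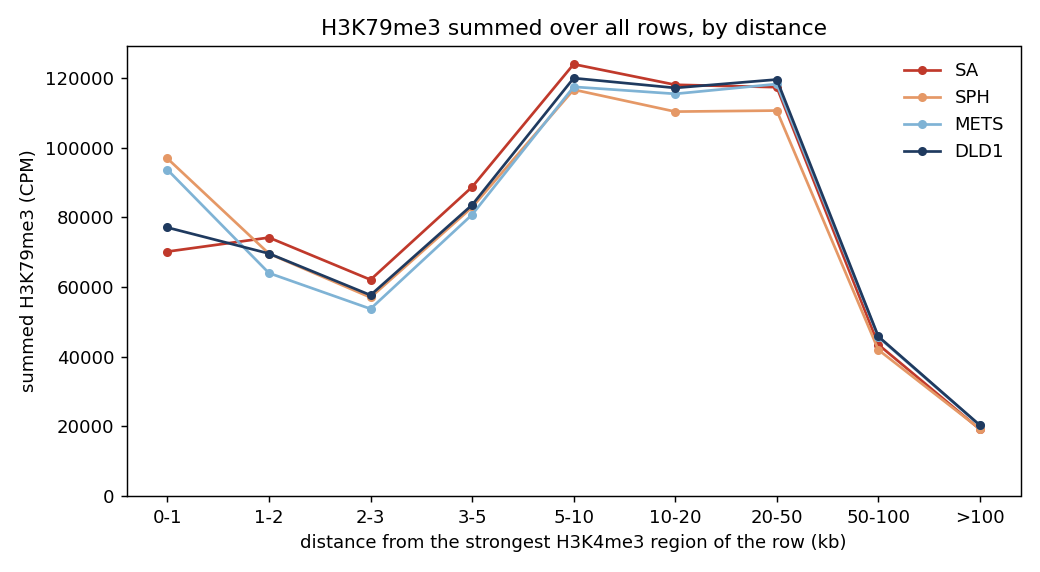
Summed H3K79me3 CPM in SA, SPH, METS and DLD1 by distance in kb from the strongest H3K4me3 region, over the 5359 rows with this region within 2 kb of a row end. The lines part most within 1 kb, where SPH and METS are highest and SA is lowest.

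The rows past 1.5-fold were picked on the sum of these same regions, so that choice sets the side on which their ratios lie, and the values by distance are a description. In the 44 higher rows with a usable end, SA was 1.48-fold higher within 1 kb (1.37 to 1.59), 1.80-fold at 2 to 3 kb (1.69 to 1.93) and 1.79-fold beyond 100 kb (1.71 to 1.88). In the 126 lower rows it was 1.85-fold lower within 1 kb and between 1.59-fold and 1.74-fold lower farther away.

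H3K4me3 summed over the whole row, a measure that played no part in the choice of rows, passed 1.5-fold in fewer rows. The median H3K4me3 region held 121 counts in SA and 113 in DLD1, against 24 and 26 for H3K79me3. The depth of both marks was not matched, so the shares past 1.5-fold differ in counting error too. A row was widened by 1 kb on each side, and 6389 kept rows held an H3K4me3 region. Of these, 11 (0.172%) were at least 1.5-fold higher in SA and 8 (0.125%) lower. The median log2 ratio of H3K4me3 was 0.04 in the rows higher in H3K79me3, -0.04 in the rows lower and 0.04 over all. H3K4me3 was below DLD1 in 97 of the 164 lower rows with a value (59.1%), against 35.8% over all rows. Across the 6389 rows the log2 ratios of both marks had a Pearson r of 0.09 and a Spearman rho of 0.06. Rows are not independent, and the r describes these libraries only.

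In a few rows H3K4me3 differed in the same direction. At chr17:79369275-79375658 H3K4me3 was 146 CPM in SA and 82.4 in DLD1, 1.77-fold higher (1.60 to 1.96), and H3K27me3 was 13.3 CPM in SA and 32.3 in DLD1, 0.411 times DLD1 (0.352 to 0.480). At chr4:331603-378653 H3K4me3 was 21.4 CPM in SA and 41.9 in DLD1, 0.510 times DLD1 (0.419 to 0.620). At chr16:31142756-31147083 it was 39.7 CPM in SA and 55.6 in DLD1. At chr7:23349828-23510086, the lowest of the named rows, it was 38.7 CPM in SA and 49.5 in DLD1, 0.781 times DLD1 (0.666 to 0.916). At chr17:79373540-79433357 it was 1.17-fold higher in SA (1.02 to 1.35). In most other named rows the H3K4me3 interval included 1. By contrast, chr12:52562780-52585784 had 45.5 CPM of H3K4me3 in SA and 43.4 in DLD1, and chr1:43990858-44089343 had 90.4 and 89.8, so H3K79me3 was lower there at near-equal H3K4me3.

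Relative to the H3K27me3 total, this mark over the same rows was lower in SA in general, with a median log2 ratio of -0.24 over all 6525. These totals were 18892326 counts in SA and 15605814 in DLD1, and no other scaling was run for this mark. A shift common to all rows also moves the numbers of rows past 1.5-fold below. At 1.5-fold, 20 rows (0.307%) were higher and 351 (5.38%) lower. Among the rows that gained H3K79me3, 13 of 61 were lower in H3K27me3 and 0 higher, with a median log2 ratio of -0.33. Among the rows that lost it, 3 of 174 were lower and 3 higher, with a median of -0.18. The row chr1:61330931-61928465 had 218 CPM of H3K27me3 in SA and 344 in DLD1, and chr7:23349828-23510086 had 46.8 in SA and 37.1 in DLD1, 1.26-fold higher (1.14 to 1.40). The log2 ratios of H3K79me3 and H3K27me3 had a Pearson r of -0.09 across rows. The H3K27me3 table was held in part, so its CPM refer to that part.

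Many of the rows past 1.5-fold had few counts. In 5 classes of equal size by summed signal, the weakest, up to 22.4 CPM as the mean of SA and DLD1, held 30 of the 61 higher and 96 of the 174 lower rows, and the strongest held 6 and 3. At least 100 counts in the line with more stood behind 44 of the higher and 122 of the lower rows. The median log2 ratio was -0.07 in the weakest class and 0.04 in the strongest. By chromosome it ran from -0.12 on chromosome 19 to 0.05 on chromosomes 4 and 13. Over all kept rows, 0.935% were higher and 2.67% lower. Chromosome 8 had 8 higher rows (2.96%) and 1 lower (0.37%) among 270. Chromosomes 18 and 19 had 0 higher among 132 and 225 rows. Their 4 and 6 lower rows (3.03% and 2.67%) were near the share over all rows. No difference between chromosomes was tested.

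SPH and METS stood farther from DLD1 than SA did. The SD of the log2 ratio over the 6525 rows was 0.26 in SA, 0.43 in SPH and 0.43 in METS. At 1.5-fold, 490 rows (7.51%) were higher and 409 (6.27%) lower in SPH, 899 (13.8%) in all, and 756 (11.6%) were higher and 208 (3.19%) lower in METS, 964 (14.8%) in all. At the 174 rows lower in SA the median was 13.5 CPM in SA, 17.8 in SPH, 25.9 in METS and 25.2 in DLD1. At the 61 rows higher in SA it was 30.5 CPM in SA, 31.3 in SPH, 26.6 in METS and 17.8 in DLD1. Since the rows were picked on SA and DLD1 and all comparisons use the same DLD1 library, these medians are given side by side only.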

How the data were processed

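The authors deposited raw read counts per region for each mark and line, as judged from whole numbers with unequal column totals. The build was hg19 per the submitters' processing notes. No aligner, region caller, counting program or input control is named: these are not given in the sources used here. How regions were called, and on which libraries, can shape which gene rows hold 5 regions.

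Region counts were summed per row, scaled to CPM by the library's total over regions, and compared as log2 ratios with 0.5 CPM added, at a threshold of 1.5-fold (Python 3.11.15, pandas 2.3.3, SciPy 1.17.1; TMM factors from edgeR 4.0.16). The summing was checked on simulated data. Named rows are the 15 highest and 15 lowest past 1.5-fold with at least 100 counts in the line with more; of rows sharing 50% of regions, the one with more counts was taken. Members and rules were chosen with earlier results of these data known. Gene lists and cell type markers had been planned by symbol. The rows carry positions without identifiers and the name table used another build, so no names were given, and the lists, markers and promoter sequences were not analysed here. The labelled epithelial origin was therefore not checked.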

Additional observations from a re-analysis of the deposited data

Results flagged for a closer look

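Mitochondrial regions lie outside the gene rows. The 19 of them summed to 446 CPM in SA, 178 in SPH, 191 in METS and 264 in DLD1, 1.69-fold higher in SA than in DLD1 (1.60 to 1.79). With no input control named, these counts were not separated from background reads, and no change of the mark is read from them. At 4 of the 30 named rows METS differed from DLD1 by at least 1.5-fold in the direction opposite to SA. This difference was not tested, and both ratios share the DLD1 library. The log2 ratio at chr1:61330931-61928465 was 0.75 in SA and -1.23 in METS. At chr11:1575274-1593150 it was -1.23 in SA and 0.72 in METS, at chr4:331603-378653 -1.21 in SA and 0.68 in METS, and at chr17:36584662-36668628 -1.16 in SA and 0.86 in METS.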

How the results depend on the processing

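No paired analysis was possible because each line has 1 library per mark and no test was run. The planned medians of gene lists were not run, since the rows carry no names. The median log2 ratio of 0.00 was 0.0367 with TMM factors, 0.0232 with median-of-ratios size factors, 0.0216 after quantile normalization, -0.0065 with scaling to counts inside kept rows, 0.0189 with 10 regions, -0.0141 with 3 regions, 0.0053 with 100 counts, 0.0059 with regions inside 1 row only and 0.0262 without regions within 1 kb of a row end, the last chosen after seeing the data. Rows higher and lower in SA numbered 96 and 127 after quantile normalization, 34 and 73 with 10 regions, 114 and 319 with 3 regions, 394 and 707 at a ratio of 5 to 4, and 9 and 25 at 2-fold. Of the 235 rows past 1.5-fold, 204 stayed with TMM factors and 184 after quantile normalization. The row chr3:120405528-120461840 had a log2 ratio of 0.53, under 1.5-fold, when regions counted by midpoint or by any overlap. None of the 30 named rows changed direction under the settings that kept it, and the settings of 10 regions, 1 row only and row ends left out did not keep 12, 3 and 2 of them. The median within 1 kb of the strongest H3K4me3 region ran from -0.17 to -0.12, and that at 1 to 10 kb from 0.05 to 0.10, under 5 settings chosen after seeing the data. Those that only rescale a library shift both medians nearly alike, so they could hardly change the contrast between them. Quantile normalization was not run on this profile. With 24 counts in SA and 26 in DLD1 at the median region, single regions carry wide intervals.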
